A study of Mus musculus with 2 samples.

Results

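CD8 T cells without a transcript of *Pdcd1* were examined in 2 single-cell RNA sequencing libraries of mouse optic nerve that carried glioma. A cell was taken as a member when its raw counts held at least 2 UMIs (unique molecular identifiers, each standing for 1 captured RNA molecule) summed over *Cd3d*, *Cd3e* and *Cd3g*, at least 2 summed over *Cd8a* and *Cd8b1*, 0 of *Cd4* and 0 of *Pdcd1*. The rule was applied to barcodes with 500 to 5000 detected genes, 500 to 20000 UMIs and at most 5% mitochondrial UMIs. It found 948 members among 25652 kept cells, 220 of 8834 (2.49%) in library C-ON and 728 of 16818 (4.33%) in library FMC_new. Among CD8 T cells by this gate, members made up 43.3% (95% exact Clopper-Pearson interval 39.0 to 47.7) in C-ON and 39.4% (37.1 to 41.6) in FMC_new. The remaining CD8 T cells held at least 1 UMI of *Pdcd1*.

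Both libraries came from *Nf1*-OPG mice at 12 weeks of age, which carry 1 germline mutant *Nf1* allele in every cell, T cells included, and 1 floxed allele that Cre driven by the *GFAP* promoter removes in glial cells. These mice, on a C57BL/6 background, develop low-grade gliomas of the optic nerve. By the labels, tissue of 10 mice was combined for each library. C-ON is also called control in its title, but the genotype is the same in both libraries and what the word refers to is not given. No glioma-free nerve was analysed here, and with 1 library each the difference between C-ON and FMC_new has no test. Each library was a 10x Genomics 5′ gene expression library, in which molecules are counted near the start of the transcript.

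CD8 T cells recognise peptides on class I molecules and kill target cells through granzymes and perforin, or act through cytokines and chemokines. *Pdcd1* encodes PD-1, an inhibitory receptor that appears after T cell receptor stimulation and stays high when stimulation persists. Cells without it can be naive cells, memory cells that circulate between blood and lymph nodes (*Ccr7*, *S1pr1*, *Lef1*), memory cells held in a tissue (*Cxcr6*, *Itgae*, *Itga1*, *Cd69*), or cells whose few *Pdcd1* transcripts were not captured. In *Nf1* optic glioma, T cells are known as a source of chemokines such as Ccl4, which act on microglia.

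Members were chosen by their UMIs of the *Cd3* genes, *Cd8a*, *Cd8b1*, *Cd4* and *Pdcd1*, so the values of these genes are a description and no finding. *Cd3e* had a UMI in 95.5% (91.8 to 97.8) in C-ON and 94.8% (92.9 to 96.3) in FMC_new. *Cd8a* had one in 88.2% and 87.4% of members and *Cd8b1* in 91.4% and 90.8%; pairs of values give C-ON first and FMC_new second, here and throughout. At the edges of the rule, 29 members in C-ON and 138 in FMC_new held exactly 2 UMIs of *Cd8a* and *Cd8b1*, and 89.7% and 83.3% of these had a UMI of *Ccl5*. Just outside, 38 and 187 cells held 1 such UMI, of which 73.7% and 75.4% had *Ccl5*. The cells nearest to the limit on *Pdcd1*, with exactly 1 UMI of it, numbered 54 and 268. The γδ T cell constant gene *Trdc* was found in 1 member of each library, and *Foxp3*, which defines regulatory T cells, in 0 of 220 members of C-ON (a share of up to 1.36% is allowed by this count) and in 1.37% of FMC_new.

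Members had a median of 3548 UMIs in C-ON and 3592 in FMC_new, against 6810.5 and 4676 over all kept cells. RNA of other cells was present in them. *Mbp*, a myelin gene, had a UMI in 94.5% and 95.3% of members, *Jchain*, a plasma cell gene, in 50.0% and 97.5%, and the pituitary hormone gene *Gh* in none of the members of C-ON and all of those of FMC_new. At least 2 UMIs summed over 11 markers of macrophages, B cells, oligodendrocytes, precursors, dendritic cells and endothelium were held by 24.1% of members in C-ON and 24.2% in FMC_new. Of the barcodes, 296 occurred in the files of both libraries, and none of these was a member in both. No doublets were removed, as the methods of the study name no such step.

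The background from free RNA was read in oligodendrocytes (at least 2 UMIs of *Mog* and *Mag*, none of *Ptprc* or the *Cd3* genes), which had a median of 7708 UMIs in C-ON and 7143 in FMC_new. In them *Gzmk* was detected in 0.0698% and 0.669% of cells, *Cxcr6* in 0.367% and 0.878%, *Ccl4* in 1.40% and 7.40% and *Ccl5* in 4.31% and 21.5%. These shares were reached at greater depth than that of the members, and all of them were below the shares in members given next.

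Most members carried RNA of cytotoxic and effector memory cells. *Nkg7*, which encodes a protein of cytotoxic granules, was detected in 93.6% (89.6 to 96.5) in C-ON and 93.5% (91.5 to 95.2) in FMC_new. *Ctsw*, a cathepsin of cytotoxic lymphocytes, was detected in 82.7% and 80.6%. *Gzmk*, the granzyme typical of effector memory cells (chr13:113171608-113225908, GRCm38, minus strand), was detected in 60.9% (54.1 to 67.4) in C-ON and 58.2% (54.6 to 61.9) in FMC_new and stood at 321 CPM (288 to 358) in C-ON and 379 CPM (358 to 401) in FMC_new, where CPM are UMIs per 1000000 UMIs of the class and the bracket is the exact Poisson 95% interval. The other granzymes were rarer. *Gzmb* had a UMI in 16.8% and 15.2% of members and *Gzma* in 6.36% and 7.01%, while *Gzmc* had none in either library, which allows shares of up to 1.36% and 0.412%. *Prf1*, the pore-forming perforin, was detected in 15.9% and 13.5% and *Fasl*, the ligand of the death receptor Fas, in 49.1% and 46.7%. In C-ON, a single cell held 79 of the 104 *Gzma* UMIs.

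*Gzmk* was found with and without the other genes of the members. Of members with *Cxcr6*, 62.0% in C-ON and 62.1% in FMC_new also had *Gzmk*, against 59.0% and 53.7% of members without *Cxcr6*. Of members with *Gzmb*, 70.3% and 75.7% had *Gzmk*, against 59.0% and 55.1% of those without. In C-ON these intervals overlapped in both cases. In FMC_new the intervals were 66.6 to 83.3 and 51.1 to 59.1 for cells with and without *Gzmb*. These shares are not corrected for the depth of the cells, and a deeper cell shows more genes.

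Transcription factors of the effector lineage were detected in fewer members. *Tbx21*, which encodes T-bet, had a UMI in 31.4% and 27.6% and *Eomes* in 12.3% and 14.3%. The inflammatory chemokine receptor *Cxcr3* was detected in 49.1% and 52.6%, and *Ly6c2*, a surface protein of memory CD8 T cells, in 63.2% and 58.1%. Over the 8 genes of the terminal effector list, the median share was 5.91% and 6.39% and the highest 28.2% and 23.6%. *Klrg1* of this list was detected in 5.45% and 3.16% and *Cx3cr1* in 4.55% and 8.24%. The lectin receptors that natural killer cells share with CD8 T cells were common, with *Klrd1* (CD94) in 40.5% and 45.5%, its partner *Klrc1* (NKG2A) in 41.4% and 26.4% and *Klrk1* (NKG2D) in 34.1% and 25%. Cells with at least 2 UMIs of the division genes *Mki67* and *Top2a* made up 3.18% (1.29 to 6.45) and 4.81% (3.37 to 6.62) of members.

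**Figure D1:**
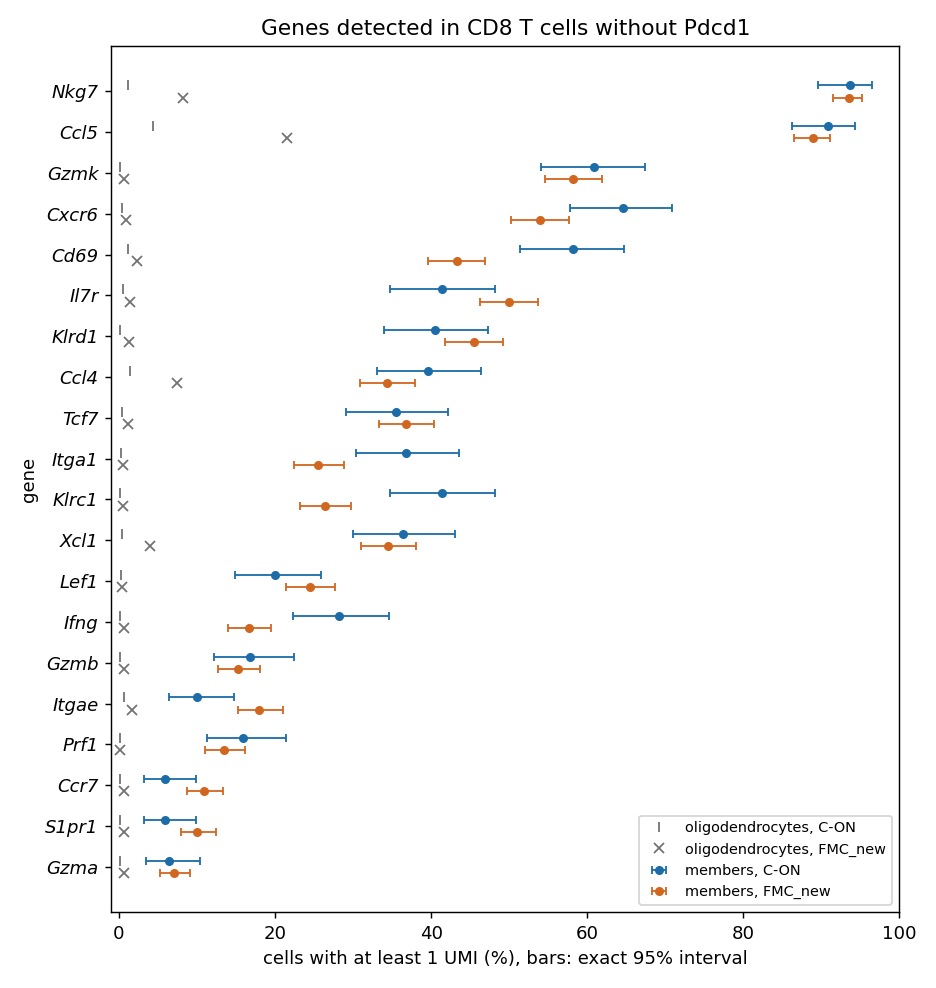
The horizontal axis gives the share of cells with at least 1 UMI of each gene, in percent, for the 220 members of C-ON and the 728 of FMC_new, with exact 95% intervals; grey signs give the share in oligodendrocytes, which should lack T cell genes. *Nkg7* was found in 93.6% and 93.5% of members, *Gzmk* in 60.9% and 58.2%, and *Gzma* in 6.36% and 7.01%, and every share lay above that of the oligodendrocytes of the same library.

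Genes of circulating and memory cells ranged widely in their shares. *Ccr7*, the chemokine receptor that leads cells into lymph nodes, was detected in 5.91% (3.18 to 9.89) in C-ON and 10.9% (8.69 to 13.3) in FMC_new. *S1pr1*, which guides exit from tissues, was detected in 5.91% and 10.0%. *Tcf7* and *Lef1*, transcription factors of naive and memory cells, were found in 35.5% and 36.8% and 20% and 24.5%, and *Il7r*, the receptor for a survival cytokine of memory cells, in 41.4% and 50.0%. Genes of tissue-resident memory ranged as widely. *Cxcr6*, a chemokine receptor of resident cells, was detected in 64.5% (57.8 to 70.9) in C-ON and 54.0% (50.3 to 57.7) in FMC_new, and *Cd69*, which opposes tissue exit, in 58.2% and 43.3%. The integrin genes *Itga1* and *Itgae* were detected in 36.8% and 25.5% and 10.0% and 18.0%. The shares with *Cxcr6*, *Itga1*, *Cd69* and *Klrc1* were higher in C-ON and the share with *Itgae* was higher in FMC_new. Each had 95% intervals that did not overlap, a difference between 2 libraries that has no replicate.

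Members held part of the chemokine RNA of the kept cells. In FMC_new, 6 pituitary markers summed to 8488 CPM in members and 11885 CPM in oligodendrocytes, against 3.89 and 7.02 CPM in C-ON. Pituitary cells were not counted, so shares of all UMIs in FMC_new may not be shares of the nerve alone. *Ccl5* (chr11:83525778-83530518, GRCm38), a chemokine that draws T cells and macrophages, stood at 4185 CPM (4061 to 4312) in C-ON and 5195 CPM (5116 to 5275) in FMC_new in members. Members, 2.49% and 4.33% of kept cells, held 17.6% and 18.1% of all *Ccl5* UMIs, and CD8 T cells with *Pdcd1* held 43.6% and 39.2%. *Ccl4* (chr11:83662584-83664683) was detected in 39.5% (33.0 to 46.3) in C-ON and 34.3% (30.9 to 37.9) in FMC_new, at 309 and 275 CPM. Macrophages, at median depths of 4671 and 4151 UMIs, had it in 39.8% and 41.7% of cells. Of all *Ccl4* UMIs, members held 4.53% and 1.89%, CD8 T cells with *Pdcd1* 10.1% and 9.89%, and macrophages, taken as cells with at least 5 UMIs of the *C1q* genes, 54.6% and 58.1%. *Ccl3*, its neighbour on chromosome 11, was rare, with a UMI in 4.55% and 6.73% of members and 0.804% and 0.748% of all *Ccl3* UMIs. Of *Gzmk* UMIs, members held 36.7% and 33.2%, which was close to the part held by CD8 T cells with *Pdcd1* (35.8% and 32.5%).

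The cytokine gene *Ifng* was detected in 28.2% (22.3 to 34.6) in C-ON and 16.6% (14 to 19.5) in FMC_new, and *Xcl1*, a chemokine for type 1 dendritic cells, in 36.4% and 34.5%. Of members with *Ccl4* in C-ON, 41.4% (30.9 to 52.4) also had *Ifng*, against 19.5% (13.2 to 27.3) of those without. In FMC_new the same shares were 18.8% (14.2 to 24.2) and 15.5% (12.4 to 19.0), whose intervals overlapped. *Il2* and *Csf2* had a UMI in 3.18% and 1.82% of members of C-ON and in 3.98% and 1.10% of those of FMC_new.

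Members were next compared with the CD8 T cells of the same libraries that held *Pdcd1*, 288 in C-ON and 1121 in FMC_new. Their counts were summed per class and library and tested with edgeR's quasi-likelihood test with the library as a block, so that each p-value measures only the spread between these 2 libraries, with 1 residual degree of freedom and a spread shared over genes. *Pdcd1* was read from the same cells, and *Pdcd1*-positive cells were deeper, at a median of 4484.5 UMIs in C-ON and 4022 in FMC_new, so detection and level of *Pdcd1* cannot be told apart in single cells. At an adjusted p under 0.05, 1057 of 11429 genes (9.25%) differed, 499 higher in members (4.37%) and 558 lower (4.88%), and the median log2 fold change over all genes tested was 0.02. DESeq2 with the same block called 149 genes, of which 147 were among the 1057. Without the library as a block, edgeR called 0 genes, with 913 at an unadjusted p under 0.05, and applying the gates after thinning each cell to 1000 UMIs left 123 calls of 4223 genes.

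Inhibitory receptors and regulators of exhaustion were lower in members. Of 13 tested genes of this list without *Pdcd1*, 12 were lower and 0 higher, with a median log2 fold change of -1.52. *Lag3*, a receptor for class II molecules, stood at 42.8 and 42.5 CPM in members and at 333 and 289 CPM in *Pdcd1*-positive cells, a log2 difference of -2.75 ± 0.15 (SE, edgeR adjusted p = 6.0e-19). *Tox*, the transcription factor that sustains exhaustion (chr4:6686353-6991557), stood at 163 and 173 CPM against 722 and 846 CPM (-2.13 ± 0.14, edgeR adjusted p = 2.0e-15). *Tigit* stood at 143 and 168 CPM against 564 and 552 CPM (-1.75) and *Ctla4* at 144 and 183 CPM against 423 and 471 CPM (-1.36). In each of these 4 genes both libraries of members lay below both libraries of *Pdcd1*-positive cells. *Havcr2*, *Cd200r1*, *Nr4a2*, *Cd160*, *Cd101*, *Cd244a*, *Entpd1* and *Klrc1* were also lower, by 0.46 to 2.85 on the log2 scale, and *Btla* did not pass the test (0.43 ± 0.26, adjusted p = 0.41). The genes were not absent from members, since *Tigit* had a UMI in 39.1% and 42.7% of them, *Ctla4* in 31.4% and 40.2% and *Tox* in 25.5% and 33.5%, the last beside 8.92% and 9.37% of oligodendrocytes. DESeq2 called 8 of the 12 and the thinned gates 8 of 11 tested.

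Lists of activation, costimulation and cytokine genes differed in direction. Of 13 activation-induced genes, 6 were higher in members (*Cd69*, *Dusp2*, *Egr1*, *Fos*, *Ier2* and *Jun*, by 0.41 to 0.71) and 1 lower (*Nr4a2*), with a median log2 fold change of 0.26, and DESeq2 called *Nr4a2* alone of these 7. The summed level of the 13 was 4467 and 5452 CPM in members and 4299 and 5502 CPM in *Pdcd1*-positive cells. In macrophages it was 15590 and 16437 CPM, so these genes are not particular to T cells. Of 10 costimulation genes, 5 were lower in members and 1 higher, with a median of -0.34. *Tnfrsf9* (4-1BB) stood at 53.5 and 76.3 CPM against 543 and 582 CPM (-3.01 ± 0.15, edgeR adjusted p = 1.2e-19), and *Tnfrsf4* (OX40), *Tnfrsf18* (GITR), *Crtam* and *Cd27* were lower by 0.58 to 2.09. *Crtam* did not keep this direction after thinning (0.050). In C-ON, 1 member held 35 of the 67 UMIs of *Crtam*. *Cd40lg* was higher (1.71) at 6 and 25 UMIs. Of 11 cytokine genes, 5 were lower in members and 1 higher, with a median of -0.42. *Ccl3* stood at 22.4 and 33.7 CPM against 188 and 212 CPM (-2.71 ± 0.16, edgeR adjusted p = 1.5e-17) and *Xcl1* at 191 and 330.3 CPM against 1307 and 1419 CPM (-2.33). *Ccl4* was lower by 0.94 in edgeR (adjusted p = 2.5e-05), with -0.43 in C-ON and -1.40 in FMC_new, and was not called by DESeq2 (adjusted p = 0.95). *Ccl5* did not pass the test (-0.35 ± 0.28, adjusted p = 0.58), nor did *Ifng*, which was 0.62 in C-ON and -0.98 in FMC_new. *Il2* was higher in members (1.81) at 44 UMIs in all, and *Tgfb1* and *Csf2* were lower. DESeq2 called 2 of the costimulation and 2 of the cytokine genes, each lower.

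**Figure D2:**
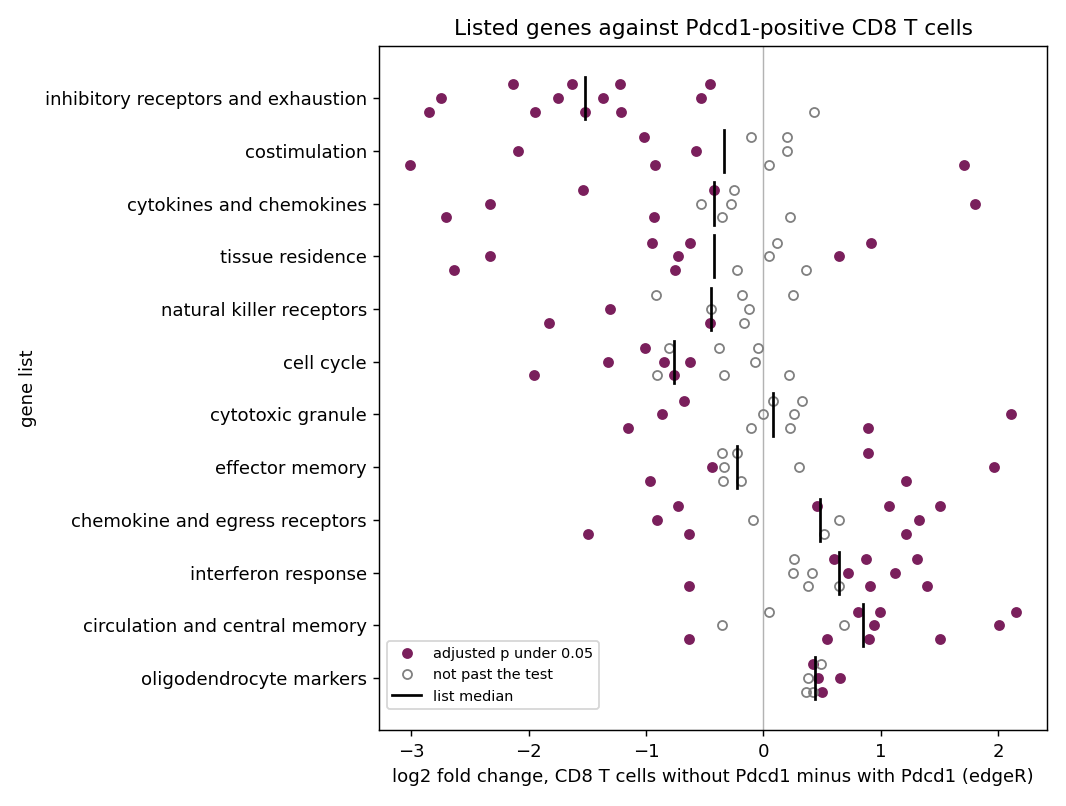
Each point is a gene of a list named on the vertical axis, placed at its log2 fold change between CD8 T cells without and with *Pdcd1* (edgeR, 2 libraries); filled points passed an adjusted p of 0.05 and the bar is the list median. All 12 called genes of the inhibitory list lay to the left of 0, with a median of -1.52, and 8 of 9 called genes of the circulation list to the right, with a median of 0.85.

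Genes of circulating and memory cells were higher in members. Of 12 genes of the circulation list, 8 were higher and 1 lower, with a median log2 fold change of 0.85. *Lef1* stood at 54.5 and 78.8 CPM against 11.6 and 23.2 CPM (2.01 ± 0.19, edgeR adjusted p = 7.1e-11), *Tcf7* at 103 and 136 CPM against 61.6 and 71.6 CPM (0.94) and *Il7r* at 259 and 334 CPM against 153 and 185 CPM (0.90). *S1pr1* (1.51) was higher from a low level, with 119 UMIs in members, and *Klf2*, the factor that drives *S1pr1*, by 0.81. *Ccr7* was lower in edgeR (-0.63 ± 0.20, adjusted p = 0.033), with -1.61 in C-ON and -0.07 in FMC_new. DESeq2 called *Lef1* and *Il7r* of this list, and the thinned gates *Lef1*, *Tcf7* and *Klf2*. Of 12 residence genes, 2 were higher in members and 6 lower. *Itga1* (0.92) and *Cd69* (0.64) were higher, whereas *Rgs16*, a regulator of G protein signalling, *Bhlhe40* and *Cxcr6* were lower by 2.64, 0.95 and 0.73. The residence list also holds *Xcl1*, *Prdm1* and *Rgs2*, which were lower. *Itgae* did not pass the test (0.36 ± 0.17, adjusted p = 0.22).

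*Gzmk* was higher in members, at 321 and 379 CPM against 196 and 204 CPM (0.90 ± 0.13, edgeR adjusted p = 2.0e-06), a call that the thinned gates did not keep. *Ly6c2* stood at 1763 and 1049 CPM against 376 and 362 CPM (1.96 ± 0.17, edgeR adjusted p = 2.6e-12) and *Cxcr3* at 177 and 224 CPM against 78.1 and 106 CPM (1.21). Both were called by DESeq2 and under the thinned gates. Of 11 cytotoxic genes, *Gzmk* and *Gzmm* were higher and *Prf1* (-1.15), *Cst7* (-0.86) and *Nkg7* (-0.67) lower. *Gzmb* (-0.10 ± 0.14) and *Gzma* (0.08 ± 0.19) did not pass the test. *Klrd1* was lower in members (-1.31 ± 0.14, edgeR adjusted p = 5.9e-10), as was *Klre1*. Interferon response genes were higher in 7 of 13 and lower in 1, with *Ifit3* (1.31), *Isg15* (0.88) and *Ifit1* (0.91) higher and *Ifi27l2a* (-0.63) lower. In FMC_new the shares of members with *Ifit1* and *Ifit3* (12.1% and 12.4%) were not above those of oligodendrocytes (12.8% and 12.4%). DESeq2 called *Ifit3* and *Gbp2*. Of 13 cell cycle genes 6 were lower and 0 higher, *Mki67* by 0.84, none of which DESeq2 called. Among chemokine receptors, *Ccr2* and *Cxcr4* were higher and *Cx3cr1* and *Cxcr5* lower, beside the receptors named above.

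Several of these genes differed stepwise with the number of *Pdcd1* UMIs in a cell, given here for cells with 0, 1 and at least 2. *Tox* stood at 163, 265 and 803 CPM in C-ON and 173, 408 and 952 CPM in FMC_new. *Tigit* stood at 143, 265 and 617 CPM in C-ON and 168, 346 and 602 CPM in FMC_new. *Ly6c2* stood at 1763, 1039.6 and 259.7 CPM in C-ON and 1049, 729 and 273 CPM in FMC_new, and *Gzmk* at 321, 228 and 191 CPM in C-ON and 379, 293 and 182 CPM in FMC_new. In both libraries, the cells with exactly 1 UMI lay between the members and the cells with at least 2 for these 4 genes. Other genes did not keep such an order. In C-ON, *Ccl3*, *Ccl4*, *Cxcr6*, *Il7r*, *S1pr1* and *Klf2* were out of order, as at 259, 289 and 129 CPM for *Il7r* and 309, 163 and 478 CPM for *Ccl4*, while in FMC_new these 6 were in order. *Gzmb* was highest at 1 UMI in both libraries. *Mki67* was out of order in FMC_new, at 49.5, 28.4 and 139 CPM, and in order in C-ON. Median depths of the cells with 1 UMI were 3838 and 3288.5, and of those with at least 2 UMIs 4551 and 4278. These values come from the cells that the rule on *Pdcd1* divides and carry no test.

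**Figure D3:**
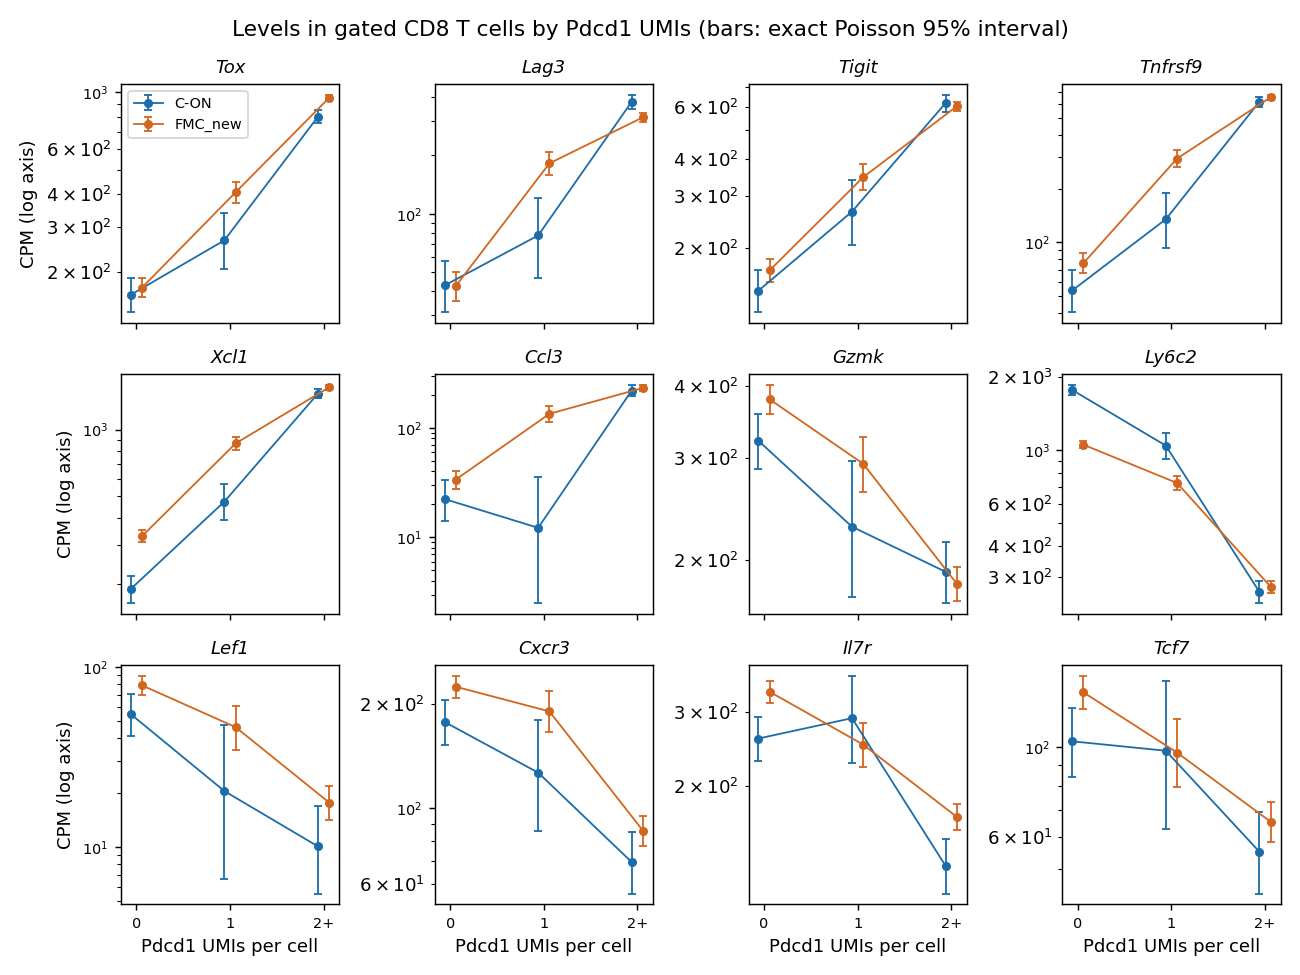
Levels in CPM, on log axes, of 12 genes in gated CD8 T cells with 0, 1 and at least 2 UMIs of *Pdcd1*, for both libraries with exact Poisson 95% intervals; the cells with 0 UMIs are the members. *Tox*, *Tigit*, *Tnfrsf9* and *Xcl1* stood higher with each step in both libraries, while *Gzmk*, *Ly6c2*, *Lef1* and *Cxcr3* stood lower.

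Genes with the largest differences mostly had few UMIs. Among those lower in members, *Prss50*, *Insrr* and *Rgs8* had 0 UMIs in members of both libraries and 59, 45 and 42 in *Pdcd1*-positive cells. With a floor of 3 counts over both libraries, these levels were at least 11.1-fold, 8.49-fold and 7.92-fold lower. *Atp2b2*, a calcium pump of the plasma membrane, had 17 UMIs in members and 576 in *Pdcd1*-positive cells (-4.17 ± 0.26, edgeR adjusted p = 2.5e-16). *Ccdc80*, *Bdh2*, *Trpm1*, *Glis1*, *AC149091.1* and *Kif26b* were lower by 3.78 to 4.57. Among those higher in members, *Ifi208*, an interferon-inducible gene, had 154 UMIs against 61 (2.29), *Krt83* 101 against 40 (2.29) and *Aqp3*, a water and glycerol channel, 36 against 15. *Dmrta1*, *Lcn4* and *Kcnj8* were higher by 2.09 to 2.73. *Pf4* and *Ccl2* also passed, but 1 cell of C-ON held 37 of 38 UMIs of *Pf4* and 167 of 171 of *Ccl2*.

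RNA of other cell types moved with this comparison. The summed level of 8 oligodendrocyte markers was 16093 CPM in C-ON and 6897 CPM in FMC_new in members, against 11192 and 5884 CPM in *Pdcd1*-positive cells, with none of the 8 at 0 in either class, and 4 of 8 (*Mag*, *Mog*, *Cldn11*, *Mal*) were called higher. Of 8 macrophage markers 1 was called (*Lyz2*, higher), with summed levels of 311 and 1364 CPM against 255 and 1541 CPM. Markers of B cells, dendritic cells, neutrophils, precursors, fibroblasts and the pituitary were also called only as higher in members. These were *Igkc*, *Cd209a*, *S100a8*, *S100a9*, *Olig1*, *Dcn* and *Prl*. Without cells that held 2 or more UMIs of other-cell markers, 0 of 8 oligodendrocyte markers were called. The markers used for this removal include *Mog* and *Mag*, so the 0 of 8 is no independent check. With these cells left out, 11 of 13 inhibitory genes were lower and 7 of 11 circulation genes higher. Of 5 regulatory T cell markers, 4 were lower in members (*Il2ra*, *Ikzf2*, *Tnfrsf9* and *Ctla4*), while *Foxp3* did not pass the test. The part of RNA from other cells and of depth in the remaining differences was not tested.

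Conventional CD4 T cells (the same *Cd3* gate, at least 1 UMI of *Cd4*, none of *Cd8a*, *Cd8b1*, *Pdcd1* or *Foxp3*) numbered 112 in C-ON and 413 in FMC_new, and in this comparison 329 of 10166 genes (3.24%) differed, 115 higher in members (1.13%) and 214 lower (2.11%). Cytotoxic genes were higher in members in 8 of 11 and lower in none, with a list median of 1.97 against 0.01 over all genes. *Nkg7* stood at 1594 and 1658 CPM in members and at 205 and 370.4 CPM in CD4 T cells (2.58 ± 0.20, edgeR adjusted p = 1.5e-04), *Gzmk* at 321 and 379 CPM against 41.0 and 108 CPM (2.35) and *Prf1* at 44.8 and 34.7 CPM against 3.41 and 5.46 CPM (3.01). *Gzmm* had 53 UMIs in members and 0 in CD4 T cells, at least 10.2-fold higher. *Ccl5* stood at 4185 and 5195 CPM against 345 and 548 CPM (3.45 ± 0.20, edgeR adjusted p = 3.6e-05) and *Xcl1* was higher by 2.79. Lectin receptors were higher in 4 of 7, among them *Klrc1* (4.34) and *Klrd1* (3.39), and so were *Eomes* (4.40), *Crtam* (3.51) and *Cd7* (3.79), a surface protein of cytotoxic lymphocytes. *Eomes* had a UMI in 27 members of C-ON and 104 of FMC_new, and in 1 and 4 CD4 T cells. Most of these calls were also made by DESeq2, which called 6 of 11 cytotoxic genes but not *Crtam* or *Cd7*.

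Costimulation and cytokine genes were mixed in this comparison. Of 10 costimulation genes, 5 were lower in members (*Cd40lg*, *Tnfrsf4*, *Tnfrsf18*, *Icos* and *Slamf6*) and 2 higher (*Crtam* and *Cd226*), with a median of -0.80. Of 11 cytokine genes, 3 were lower (*Il10*, *Tnf* and *Ifng*) and 2 higher (*Ccl5* and *Xcl1*), with a median of -0.31. *Cd40lg*, the ligand by which helper cells license B cells and dendritic cells, stood at 5.84 and 7.88 CPM against 271 and 189.6 CPM (-4.88 ± 0.25, edgeR adjusted p = 1.5e-05). *Tnfrsf4* stood at 10.7 and 25.2 CPM against 288 and 278 CPM (-3.92) and *Ctla4* at 144 and 183 CPM against 567 and 726 CPM (-1.95). The cytokine genes *Il21* and *Il10* had 1 and 5 UMIs in members against 55 and 114 in CD4 T cells, and *Areg*, a growth factor of the epidermal growth factor family, 23 against 221. *Maf*, *Tox2* and *Icos* were lower by 3.42, 4.14 and 1.13, and *Tnf* and *Ifng* by 1.20 and 0.65, the last 2 without a call by DESeq2. The largest differences also held *Smyd1*, *Wdr95*, *Bend4* and *Cd209a* (higher) and *Olfr60*, *Col25a1* and *Ccn4* (lower). Of 247 UMIs of *Col25a1* in CD4 T cells of FMC_new, 242 were held by 1 cell. *Cd209a*, a dendritic cell marker, had a UMI in 2 of 220 members of C-ON and 19 of 728 of FMC_new. In C-ON, 1 member held 27 of its 42 UMIs. None of 11 tested circulation genes passed in either direction, with a median of 0.10. Of 8 B and plasma cell markers 3 of 7 tested were lower in members, and their summed level was 6483 and 4700 CPM against 19978 and 9465 CPM, while *S100a8* and *S100a9*, neutrophil genes, were called higher. Both had 0 UMIs in either class of C-ON, and in FMC_new 1 member held 356 of 739 UMIs of *S100a8* and 1 member held 515 of 974 of *S100a9*. The part of such RNA in the result was not tested.

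Natural killer cells, taken as cells with at least 2 UMIs of *Ncr1* and *Klrb1c* and none of the T cell genes of the rule, numbered 59 and 198. In this comparison 480 of 9130 genes (5.26%) differed, 231 higher in members (2.53%) and 249 lower (2.73%). Genes of the T cell receptor complex were higher in 7 of 10 and lower in none. The gates required *Cd3* UMIs in members and excluded them in natural killer cells, so this direction describes the gates and is no independent finding. *Cd5*, a brake on receptor signalling, had 456 UMIs in members and 0 in natural killer cells, at least 40.1-fold higher, and *Sit1* 182 and 0, at least 16.0-fold higher. *Themis*, needed for T cell selection, had 1487 UMIs against 3 (7.03 ± 0.25, edgeR adjusted p = 3.2e-06), and *Cd6* and *Slamf1* were higher too. *Gzmk* stood at 321 and 379 CPM against 0 and 7.04 CPM (6.29), with no UMI in the 59 natural killer cells of C-ON. *Cxcr6*, *Cd69*, *Itgae*, *Ccr7*, *S1pr1* and *Il7r* were higher in members by 0.92 to 3.05, and DESeq2 called *Itgae*, *Cd69* and *Il7r* among these 6.

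Natural killer receptors were lower in members in 12 of 13 and higher in none, with a list median of -3.82 against 0.03 over all genes. The natural killer cells were chosen by *Ncr1* and *Klrb1c*, so this direction too describes the gates and is no independent finding. *Klra7* had 0 UMIs in members and 273 in natural killer cells, at least 345-fold lower, although DESeq2 called neither *Klra7* (adjusted p = 0.25) nor *Cd5* (adjusted p = 0.82). *Klra4*, *Klra8* and *Klra1*, of the same Ly49 family whose near-identical members can share reads, had 1, 2 and 1 UMIs in members. *Fcer1g* and *Tyrobp*, signalling adaptors of activating receptors, were lower by 4.43 and 3.82. *Gzma* stood at 101 and 70.0 CPM against 2217 and 2001 CPM (-4.54 ± 0.16, edgeR adjusted p = 5.1e-06) and *Prf1* at 44.8 and 34.7 CPM against 168 and 174 CPM (-2.02). *Xcl1* (-1.96), *Klrd1* (-1.49), *Tbx21* (-1.38) and *Eomes* (-1.33) were lower, while *Ccl5* did not pass the test (0.47 ± 0.17, adjusted p = 0.21). *Klrb1a*, *Klrb1b*, *Klrb1f*, *Clnk*, *Vegfc* and *D5Ertd615e* were among the 10 largest of the lower genes, and *Actn2*, *Art2b*, *Smyd1* and *Fam169b* among the 10 largest of the higher ones. Of 7 tested macrophage markers 5 were higher in members, with summed levels over 8 markers of 311 and 1364 CPM against 66.2 and 472 CPM. The part of macrophage RNA in the result was not tested.

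**Figure D4:**
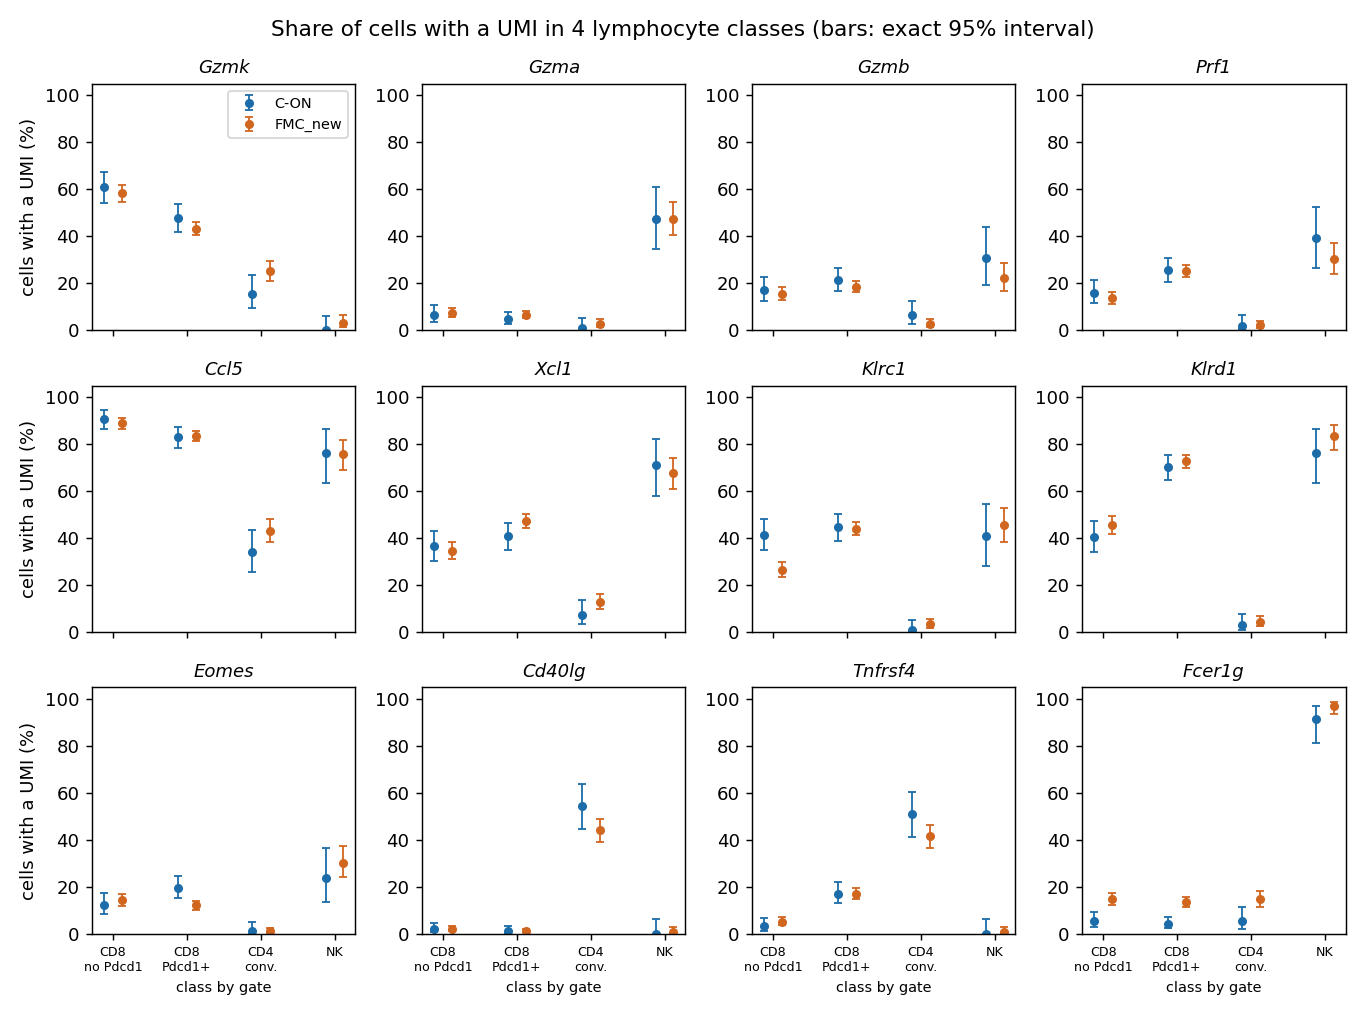
The vertical axes give the share of cells with a UMI, in percent with exact 95% intervals, for 12 genes in 4 classes by gate and both libraries. *Gzmk* was detected in 60.9% and 58.2% of members and in 0% and 3.03% of natural killer cells, *Gzma* in 6.36% and 7.01% against 47.5% and 47.5%, and *Cd40lg* in few members but in 54.5% and 44.1% of conventional CD4 T cells.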

How the data were processed

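The authors deposited raw UMI counts per gene and barcode for each library, made with Cell Ranger 7.2.0 per the file headers on an mm10 reference of 32285 genes; whether intronic reads were counted is not given in the sources used here. The 2 libraries held 85101211 and 129113325 UMIs in 10845 and 21341 barcodes. From the counts, cells were filtered and gated as described, with no clustering, normalisation or doublet caller. Counts were summed per class and library, gate genes were left out, and sums were tested in edgeR 4.0.16 (TMM, filterByExpr, quasi-likelihood test, library as block, Benjamini-Hochberg adjustment over all genes tested). DESeq2 1.42.0, other scalings, filters, gates and thinning to 1000 UMIs were alternatives. Shares have exact Clopper-Pearson and CPM exact Poisson intervals, which cover counting error only. On simulated data, edgeR recovered 49% of 2-fold and 96% of 4-fold changes against *Pdcd1*-positive cells, 46% and 90% against CD4 T cells, and 26% and 94% against natural killer cells, with 4, 1 and 11 false calls. The simulated counts had the same set spread for every gene, not the spread of these data. These rates are therefore no error rates of the real calls. Named genes were those of 25 lists and the 10 largest called changes per direction with the same sign in both libraries. Members and lists were chosen with earlier results of these data known. A planned test between subsets of members was not run, as 1 subset held under 20 cells in a library, and some genes are not reported here. Gene positions are from the GRCm38 annotation.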

Additional observations from a re-analysis of the deposited data

How the results depend on the processing

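Members were a mean of 3.41% of kept cells over the 2 libraries, with 2.49 to 4.33 when either was left out, and 2.10 when the gates were applied after thinning. *Gzmk* was in 59.6% of members, in 51.8% with gates of at least 1 UMI, 61.6% with gates of 3 and 26.8% after thinning. *Cxcr6* was in 59.3%, with 51.3% under the gates of 1 and 36.1% after thinning. *Ccl4* fell from 36.9% to 24.6% and *Ccr7* from 8.38% to 3.0% after thinning. Against *Pdcd1*-positive cells, 1057 genes were called, 149 by DESeq2, 146 without a filter on low counts, 0 without the replicate block (913 at an unadjusted p under 0.05) and 123 after thinning; the part called higher was 47.2%, 30.9% by DESeq2 and 17.1% without the filter. Against CD4 T cells 329 were called, 84 by DESeq2, 43 without the filter, 1 without the replicate block and 67 after thinning. Against natural killer cells 480 were called, 165 by DESeq2, 1 without the filter, 75 without the replicate block and 312 after thinning. After thinning, *Crtam* turned to 0.050 (log2) against *Pdcd1*-positive cells. The causes were not tested. Leaving out a library gave no count of calls, since no residual degrees of freedom remained. The block is the library, which both classes of a comparison share.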

Other observations

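The variable genes of the T cell receptor beta chain were spread over many members. A UMI of any *Trbv* gene was found in 197 members of C-ON and 621 of FMC_new, and 22 of 35 annotated *Trbv* genes were detected. *Trbv12-2* had a UMI in 19.3% of these cells in C-ON and 17.6% in FMC_new, *Trbv19* in 11.7% and 19.5%, *Trbv13-3* in 13.7% and 11.0%, *Trbv29* in 14.2% and 10.6%, and *Trbv13-2* in 8.12% and 7.89%, so the order differed between the libraries. UMIs of 2 or more *Trbv* genes were held by 22.3% of these members in C-ON and 25.6% in FMC_new, and near-identical *Trbv* genes can share reads. *Trbv16*, chosen after its values were seen, was found in 6.60% and 8.21% of members with any *Trbv*, against 39.9% and 17.5% of *Pdcd1*-positive CD8 T cells with any. *Trbv13-3* went the other way, in 4.76% and 4.29% of those *Pdcd1*-positive cells, below its shares in members. Clones were not called, so a share of cells with a *Trbv* gene is not a clone size.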
